A study of Mus musculus with 12 samples.

Results

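The cytosolic ribosomal protein genes, which encode the protein part of the ribosome in the cytosol, were followed in RNA of sorted alveolar type II (ATII) cells of 12 mice. The members were chosen by symbol (Rps and Rpl names with a number, Rplp0 to Rplp2 and Rpsa), which found 85 of the 23238 gene symbols, 33 of the small and 52 of the large subunit. Of these, 84 passed the filter on low counts and were tested with the other genes, 13054 in all, and Rpl10l, with 3 counts over all libraries, did not. The symbol rule takes in 8 paralogs or like-named genes (such as Rpl22l1 and Rps27l). It leaves out genes that encode ribosomal proteins under other names, such as Fau and the gene for RACK1, listed as Gnb2l1.

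Each of the 4 groups held 3 mice, 8 weeks of age when treated, and each library came from 1 mouse. Con mice received PBS into the trachea and are wild type in the sample labels, while the study's text calls its PBS controls Spc-p300 f/f, that is, carriers of the floxed alleles. BLM mice are labelled as controls for the knockout and received 4 mg/kg bleomycin, which cuts DNA and is used to injure the lungs of mice. KO mice (Spc-p300 d/d) had exon 9 of p300, a histone acetyltransferase gene, deleted through tamoxifen at 10 mg/kg and a Cre driven by the promoter of surfactant protein C, and received PBS. KOBLM mice carried the same deletion and received 4 mg/kg bleomycin. The study uses that Cre to delete p300 from ATII cells. If it acted in them alone, any other cell in the sort kept p300, which was not tested here. The sample records give tamoxifen at 10 mg/kg for every group, and the study's methods name no group for it. A legend of its supplement speaks of vehicle or tamoxifen for the mice whose ATII cells were isolated. Whether mice without the deletion also received tamoxifen therefore cannot be told. The cells were sorted for CD74 and EpCAM.

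Ribosomal proteins are made in near equal amounts, since each mature ribosome carries almost all of them once. Their mRNAs are abundant, are transcribed from promoters that mostly lack a TATA box, and begin with a run of pyrimidines, the 5′ terminal oligopyrimidine (TOP) tract, through which the kinase mTOR and the RNA-binding protein LARP1 adjust their translation. An ATII cell makes and secretes the proteins of surfactant and can divide to replace the flat type I cells after injury, and both need ribosomes. The level of an mRNA does not by itself give the amount of ribosome or of translation.

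The labels name a Lexogen Quant-Seq kit, a method that reads the 3′ end of polyadenylated transcripts, and the values are counts of reads per gene. They held between 7005005 and 11153154 counts (median 9186234), and Rn45s, the precursor of ribosomal RNA, took 2.04% to 21.6% of them. Of 12 ATII markers, all in the files, the summed level was 637 to 2187 CPM (counts scaled to the same library total) in Con and 452 to 576 CPM in BLM. In KO libraries it was 184 to 764 CPM and in KOBLM libraries 186 to 682 CPM. Sftpd, Abca3 and Lamp3 were at 0 in BLM 3 and KOBLM 2. Markers of macrophages (15 of 16 in the files) summed to 11711 to 45331 CPM in every library except BLM 3, where they summed to 1389. BLM 3 stood apart in other ways too: 6847 genes had a count in it, against 8790 to 13838 in the other libraries, and 16 pluripotency genes summed to 2967 CPM, against 0.648 to 27.7 elsewhere. Calls and medians of the members that use BLM 3 are therefore also given without it. Ep300, which encodes p300, was at 141, 143 and 51.0 CPM in Con and 145, 154 and 103 in KO, and reads from the 3′ end do not check the deleted exon. The study itself reports checks of the deletion by qRT-PCR of isolated ATII cells and by co-staining of lungs for p300.

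The starts of the genes are shown first, for members that the comparisons below turn on and for members with a low spread over the libraries. The RefSeq promoter table on GRCm38.p6 had an entry for 64 of the 85 members, with 250 bases before and 50 after the start. The windows below hold 15 bases before the start and the first 15 bases of the first exon, 5′ to 3′ on the strand of the gene. Capitals mark an unbroken run of at least 7 C or T that touches the 10 bases on either side of the start, where the TOP tract would lie.
Rps6, chr4:86857353-86857382, minus strand: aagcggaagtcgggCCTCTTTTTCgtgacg
Rpl12, chr2:32961697-32961726, plus strand: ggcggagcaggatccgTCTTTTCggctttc
Rpl13a, chr7:45128731-45128760, minus strand: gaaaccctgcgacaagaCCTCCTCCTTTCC
Rps3a1, chr3:86142654-86142683, minus strand: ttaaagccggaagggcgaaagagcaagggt
Rplp2, chr7:141447636-141447665, plus strand: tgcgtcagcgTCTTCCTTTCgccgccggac
Rps9, chr7:3704026-3704055, plus strand: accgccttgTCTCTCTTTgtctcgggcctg
Rps6, Rpl12, Rpl13a and Rps3a1 were higher in BLM than in Con, and Rplp2 and Rps9 are abundant members with a low spread over the libraries. Even so, Rps9 was higher and Rplp2 lower in every BLM library than in every Con library. A run of this kind stood at the start of 34 of the 64 members (53.1%), against 23.4% of the 9862 tested genes with an entry. Among the members called higher in BLM, 4 of the 10 with an entry held such a run, and among the other members 30 of 54 (55.6%). CCGGAA, the core of an ETS factor motif, read on both strands, was present in 54.7% of the members and in 30.5% of the tested genes. GGGCGG, a motif of Sp1, was present in 62.5% and 67.1%, AAGATGGC, a motif of YY1, in 9.38% and 5.17%, and TATAAA in 10.9% and 9.08%. The ETS, Sp1 and TATA motifs stood in 5, 8 and 1 of the 10 called members. These are matches of letters in a window of 300 bases around an annotated start, which can lie some bases from the start used in these cells.

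The members differed widely in level in these counts, which by the labelled 3′ method are not divided by the length of the transcript. If reads had covered whole transcripts, longer members would appear higher than they are. A mean over 1000 CPM was found for 3 members, a mean between 100 and 1000 for 70, and a mean between 20 and 100 for 9. Rplp1, an acidic protein of the stalk that recruits elongation factors to the large subunit, was the highest member in every library, with 2707 CPM at the lowest, 3495 on average and 4503 at the highest, and held 10.4% of the members' counts on average. Among the next in order of mean CPM were Rps9 (1483), Rpl22 (1178), Rps20 (999.8), Rplp2 (870.1), Rps26 (861), Rps14 (839), Rps29 (829) and Rpl32 (759.8). Rplp1 did not overlap with Rps9, and from Rps9 on each of these genes overlapped with the next named in its range over the libraries. Apart from the paralogs, the lowest means were those of Rpl12 (71.9 CPM), which sits at the base of the stalk, and Rps27 (74.9 CPM).

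**Figure D1:**
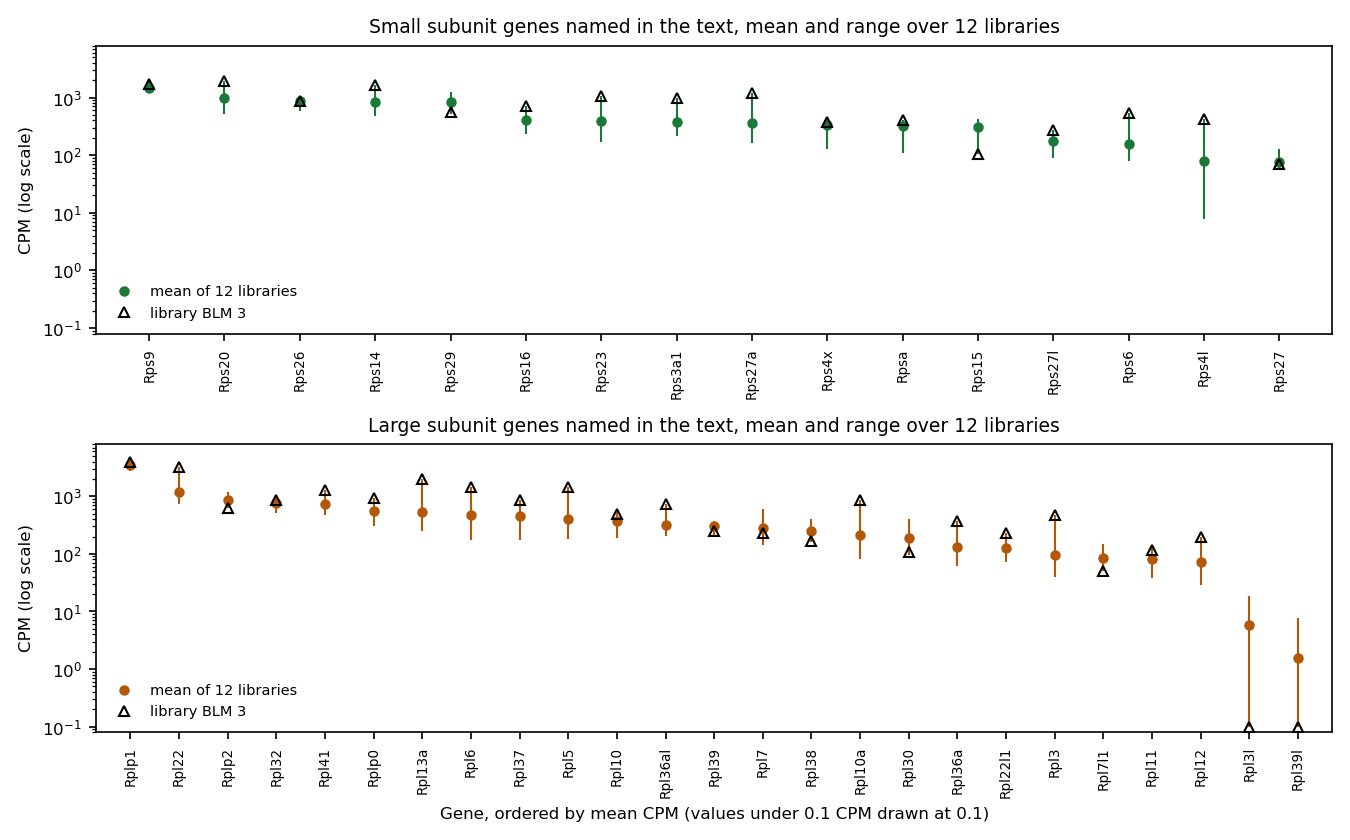
CPM of 41 ribosomal protein genes on a log scale, those named in the text, with small subunit genes above and large subunit genes below, in order of the mean. Filled points are means of 12 libraries, lines run from the lowest to the highest library, and open triangles mark BLM 3, which was the highest library for 55 of the 84 tested genes. Rpl10l, with a mean under 1 CPM, is not drawn.

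These levels carry a limit. The files list 9 entries named as pseudogenes or retrotransposed copies of 8 members, and 3 of them had a higher mean than the member. Rplp2-ps1 averaged 2144 CPM against 870.1 for Rplp2, Rpl37rt 1224 against 450.2 for Rpl37, and Rps27rt 236 against 74.9 for Rps27. How reads that fit several places were assigned is not given in the sources used here. The split of counts between a member and its copies is therefore uncertain, and with it the place of these 3 members in the order above.

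Among the least variable members over the 12 libraries were Rplp1 and Rps9, with a coefficient of variation of CPM of 15.04% and 15.6%. The most variable were Rpl39l (177%), Rps4l (143%) and Rpl3 (126%). Without BLM 3, that of Rpl3 was 25.1%, that of Rps4l 54.2% and that of Rpl39l 168%. The median over the members was 36.1%, against 87.5% for all tested genes and 65.6% for the 77 genes of mitochondrial ribosomal proteins, which belong to the separate ribosome of mitochondria. A higher count lowers this measure, and its part in these differences was not tested.

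The share of a library that fell on the members was 2.92%, 2.62% and 3.35% in Con and 3.69%, 3.85% and 5.79% in BLM. In KO it was 3.01%, 2.53% and 3.82%, and in KOBLM 2.43%, 3.42% and 3.09%. The 3 BLM libraries lay above the 3 Con and the 3 KOBLM libraries, and the lowest BLM library lay below the highest KO library. The 95% Wilson bounds lay at most 0.014 percentage points from each share. They cover the counting error of reads within a library, and not the spread between mice. These reads carry no molecular identifiers, so the bounds do not cover the counting of molecules. The mean was 2.96% ± 0.37 in Con, 4.44% ± 1.17 in BLM, 3.12% ± 0.65 in KO and 2.98% ± 0.50 in KOBLM (SD, n = 3 each). When each library was scaled by its TMM size, the total count corrected by edgeR for differences in composition, BLM ran from 3.77% to 4.66%, and the other 9 libraries from 2.54% to 3.43%. Without the counts of Rn45s, BLM ran from 4.07% to 7.01% and the others from 2.84% to 3.96%. In all 3 ways BLM was above Con and KOBLM without overlap. Small subunit genes had 0.60 to 0.74 times the counts of large subunit genes in every library, with 0.67 ± 0.01 in Con, 0.69 ± 0.08 in BLM, 0.67 ± 0.02 in KO and 0.72 ± 0.03 in KOBLM (SD, n = 3 each). With BLM 3 (0.60) the difference between Con and BLM was less than the spread within BLM. BLM 1 and BLM 2, at 0.72 and 0.74, lay above the 3 Con libraries (0.65 to 0.68). Whether BLM lay above Con thus turned on BLM 3. The 3 KOBLM libraries (0.69 to 0.74) also lay above the 3 Con libraries, while KO (0.65 to 0.69) overlapped with both. The ratio was not tested.

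**Figure D2:**
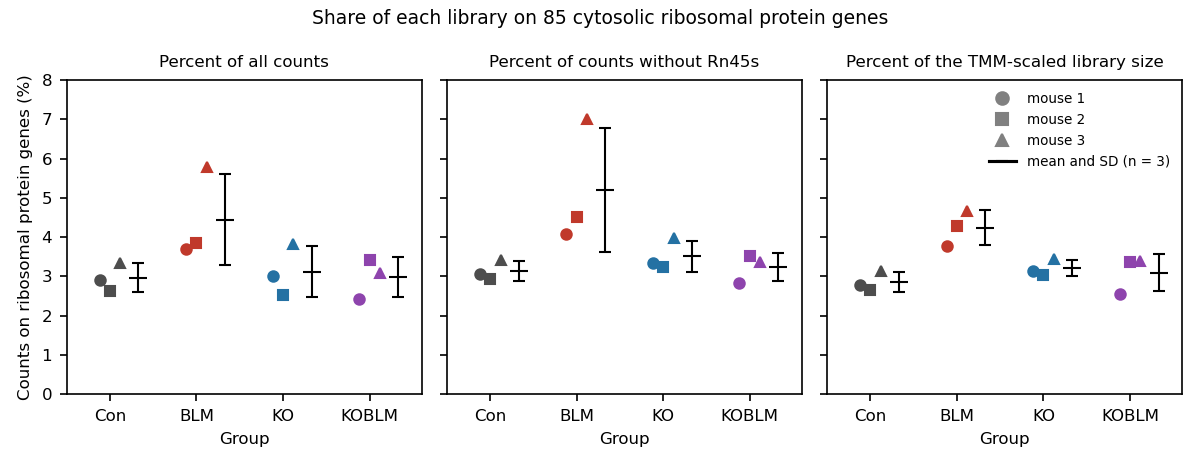
Percent of counts on the 85 ribosomal protein genes in each library, of all counts (left), of counts without Rn45s (middle) and of the TMM-scaled library size (right). Each symbol is 1 mouse and bars give the mean and SD of 3. In each panel the BLM libraries lie above the Con and KOBLM libraries, and BLM 3 is the highest.

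Other features moved with the BLM libraries. The 6 fibroblast markers, all in the files, summed to 1134 to 1845 CPM in BLM, and to 91.2 to 457 CPM in Con, while KO (40.8 to 418) and KOBLM (157 to 658) lay below BLM as well, with Pdgfra, Pdgfrb and Dcn at 0 in BLM 3. The 5 markers of type I cells summed to 276 to 399 CPM in BLM and 88.7 to 138 CPM in Con, with 24.1 to 272 CPM in KO and 28.0 to 232 CPM in KOBLM, with Hopx and Aqp5 at 0 in BLM 3. The sum of macrophage markers was lower in BLM (1389 to 13089 CPM) than in Con (15399 to 29526) and KO (16360 to 45331). That of KOBLM (11967 to 26264) overlapped with BLM. Without BLM 3, 6 of the 15 markers lay above 0 in BLM against Con. Of them all, 3 were then called higher and 5 lower (background 2.94% and 2.51%). The part of these marker sets in the differences of the ribosomal protein genes was not tested. In bulk RNA of sorted cells, fewer cells of a type and less RNA per cell cannot be told apart.

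The first comparison asks how bleomycin changed these genes in mice with p300. A gene was called at more than a 1.5-fold difference with p under 0.05 before adjustment. Between BLM and Con, 14 of the 84 members (16.7%) were called higher in BLM and none lower. Of all tested genes, 2.19% were called higher and 2.08% lower at this threshold. Those called included Rpl3, Rpl6, Rpl10a, Rpl12, Rpl13a, Rpl36a and Rpl41 of the large subunit and Rps3a1, Rps6, Rps14, Rps16, Rps23 and Rps27a of the small subunit. The median log2 fold change was 0.68 over the members and −0.08 over all tested genes, and 77 of the 84 lay above 0, against 47.3% of all tested genes. In CPM, 38 members (45.2%) were higher in every BLM library than in every Con library, against 5.32% of all tested genes. With BLM 3 left out these were 43 members (51.2%) against 16.1%. Rpl7, Rpl7l1 and Rplp2 were lower in every BLM library (3.57% of the members, against 11.8% of all tested genes), and 4 members were without BLM 3 (4.76%, against 15.4%). No call held after Benjamini-Hochberg adjustment over all genes, where the smallest adjusted p of edgeR's quasi-likelihood test was 0.99. The exact permutation test of 3 mice against 3 cannot go below 0.1. The shares of all tested genes are not those of like genes. The members had less spread over the libraries (median coefficient of variation 36.1% against 87.5%). They also varied together, so counts of members are not counts of independent changes. Both limits hold for the other comparisons too.

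**Figure D3:**
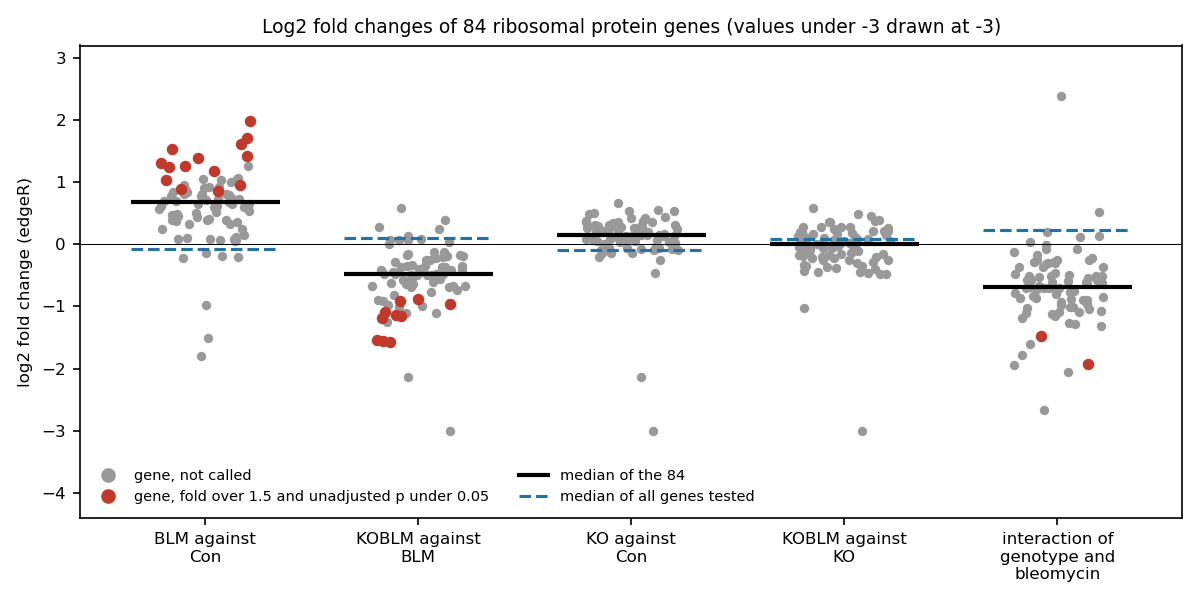
Log2 fold changes of the 84 tested ribosomal protein genes in the 5 comparisons, with called genes in red, the median of the 84 as a black line and the median of all tested genes as a dashed line. The medians of the 84 are 0.68 in BLM against Con, −0.48 in KOBLM against BLM, 0.14 in KO against Con, 0.00 in KOBLM against KO and −0.68 in the interaction.

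Rps27a, which is made as a fusion of ubiquitin and a small subunit protein, had the smallest p. Its level was 198, 161 and 384 CPM in Con and 523, 498 and 1196 CPM in BLM, so the groups did not overlap. The log2 fold change was 1.53 ± 0.47 (SE, edgeR p = 0.0058, exact permutation p = 0.1). Rps3a1, whose protein lies near the mRNA exit of the small subunit, was at 268, 266 and 250.3 CPM in Con and at 557, 470.0 and 976 CPM in BLM. Every BLM library was above every Con library, with a log2 fold change of 1.31 ± 0.42 (SE, edgeR p = 0.0079, exact permutation p = 0.1). Rps6 encodes the protein that S6 kinases phosphorylate downstream of mTOR. It had 99.5, 92.8 and 78.1 CPM in Con and 167, 170.2 and 542 CPM in BLM. Its groups were also apart, with a log2 fold change of 1.61 ± 0.54 (SE, edgeR p = 0.010, exact permutation p = 0.1). These 3 members were called in each of the 6 fits that left out a library of either group.

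Rpl3 encodes a protein close to the peptidyl transferase centre. It was at 57.9, 41.0 and 46.5 CPM in Con and at 83.4, 82.4 and 465 CPM in BLM, a log2 fold change of 1.98 ± 0.71 (SE, edgeR p = 0.015, exact permutation p = 0.1). The value of BLM 3 set the size of this change. Without BLM 3 the log2 fold change was 0.92 and the call was lost. Rpl13a, a large subunit protein also known to leave the ribosome and silence inflammatory mRNAs, was at 359, 276 and 453 CPM in Con and at 488, 577 and 1988 CPM in BLM. The groups were apart, with a log2 fold change of 1.39 ± 0.51 (SE, edgeR p = 0.015, exact permutation p = 0.1). It was 0.71 without BLM 3 and no longer called. Rpl12 was at 43.7, 47.7 and 28.6 CPM in Con and at 82.5, 125 and 198 CPM in BLM. Its log2 fold change was 1.71 ± 0.64 (SE, edgeR p = 0.017, exact permutation p = 0.1). Without BLM 3 it was 1.52 and still called.

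Rps14, which encodes a protein of the platform of the small subunit, had 643, 687 and 639 CPM in Con and 1253, 1184 and 1625 CPM in BLM, with groups that were apart and a log2 fold change of 1.04 ± 0.39 (SE, edgeR p = 0.018, exact permutation p = 0.1). Without BLM 3 the log2 fold change was 1.03 and remained past the threshold. Rps16, Rps23 and Rpl41 also passed without BLM 3, while Rpl6, Rpl10a and Rpl36a did not. Rpl10a, for example, was at 122, 106 and 213 CPM in Con and at 197, 217 and 861 CPM in BLM, where 1 BLM library lay below the highest Con library. Its log2 fold change was 1.43 ± 0.60 (SE, edgeR p = 0.031, exact permutation p = 0.2), and 0.65 without BLM 3.

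Without BLM 3, 18 members were called higher and none lower, against 2.94% and 2.51% of all genes then tested. The 8 called both with and without it made up 57.1% of the 14 and 44.4% of the 18. They were Rpl12, Rpl41, Rps14, Rps16, Rps23, Rps27a, Rps3a1 and Rps6. The median log2 fold change of the members was 0.61 without BLM 3. When a Con library was left out instead, 5 members (5.95%) were called higher without Con 1 and 5 without Con 2, where 0.975% and 1.46% of all genes then tested were.

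**Figure D4:**
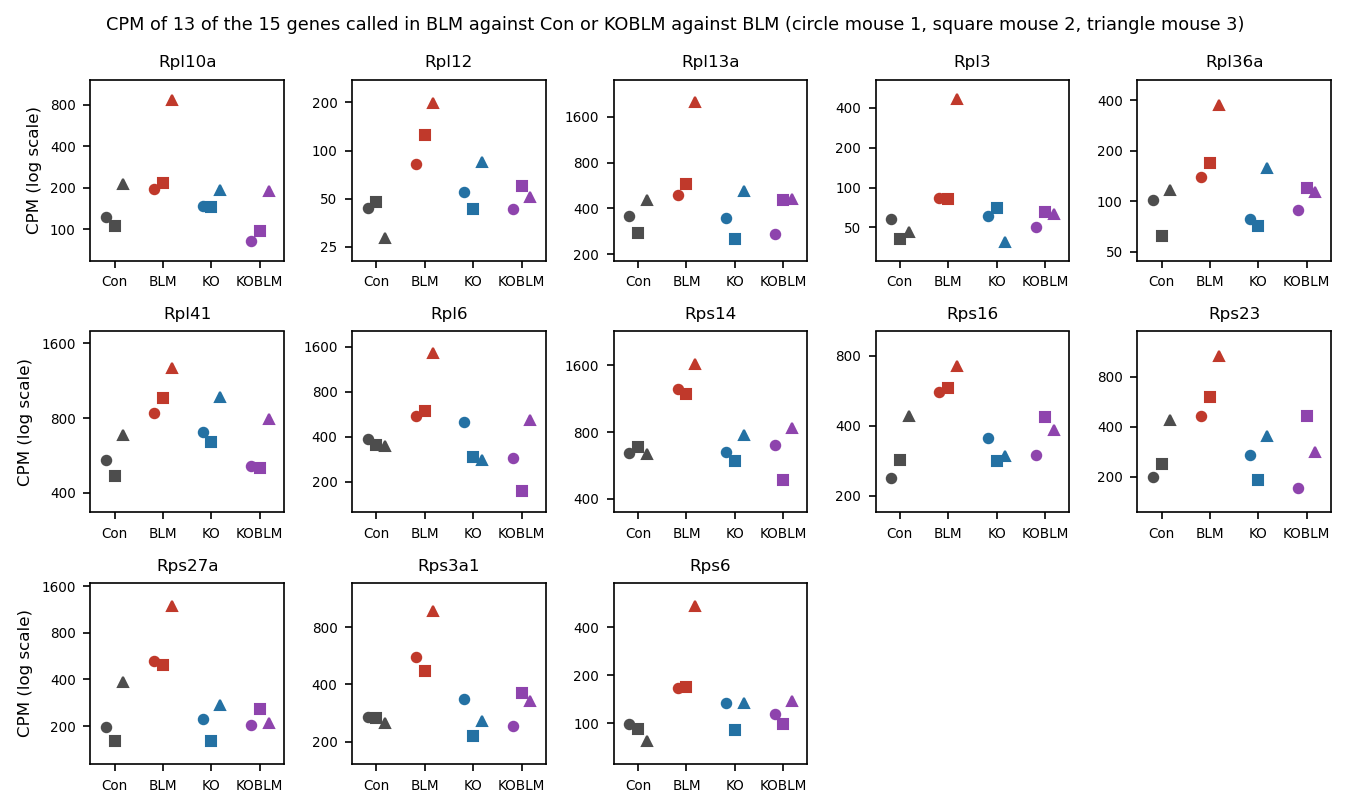
CPM on a log scale of 13 of the 15 members called in BLM against Con or in KOBLM against BLM, by group. Each symbol is 1 mouse (circle 1, square 2, triangle 3). BLM 3 is the highest library for all 13, and for Rpl3, Rpl6, Rpl10a, Rpl13a and Rps6 it lies far above BLM 1 and BLM 2.

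Of the 10 most abundant members, 1 was called (Rps14). Rplp1 was at 3902, 3672 and 2926 CPM in Con and 3339, 3521 and 3974 CPM in BLM, with overlapping groups and a log2 fold change of 0.05 ± 0.35 (SE, edgeR p = 0.89, exact permutation p = 0.8). Its partner in the stalk, Rplp2, was at 904, 891 and 830.3 CPM in Con and 798, 826 and 614 CPM in BLM. All BLM libraries were thus below Con for Rplp2, by a log2 fold change of −0.19 ± 0.41 (SE, edgeR p = 0.65, exact permutation p = 0.1). Rplp0, the protein that anchors the other two to the ribosome, was at 489.8, 407 and 621 CPM in Con and 603, 584 and 946 CPM in BLM, a log2 fold change of 0.48 (edgeR p = 0.26, exact permutation p = 0.3). For Rps9, Rps20, Rps26 and Rpl32 the log2 fold changes lay between 0.09 and 0.40, and none was called.

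Rpl5 and Rpl11 form, with the 5S RNA, the particle that binds MDM2 and stabilises p53 when ribosome assembly is disturbed. Rpl5 was at 270.0, 276 and 360.4 CPM in Con and 299, 329 and 1441 CPM in BLM, so its log2 fold change of 1.07 ± 0.56 (SE, edgeR p = 0.076, exact permutation p = 0.5) came with overlapping groups and a single high library. Rpl11 was at 62.7, 51.4 and 133 CPM in Con and 96.1, 105 and 116 CPM in BLM, a log2 fold change of 0.39 (edgeR p = 0.55, exact permutation p = 0.4). Neither was called.

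Because all members supply the same particle, their shares of the ribosomal protein counts were compared as well. Between BLM and Con, 14 members had a higher share in every BLM library and 11 a lower share, and without BLM 3 these were 23 and 16. The higher ones included Rps27a, Rps3a1, Rps6, Rps14, Rpl3 and Rpl12, and the lower ones Rplp2, Rpl10, Rpl7, Rps4x and Rpsa. These shares sum to 100% in a library, so a gain of some members lowers the share of others, and no test was made. Such shares are defined for members only, so the counts have no background. Leaving out a library makes separation easier. In CPM, 5.32% of all tested genes were higher in every BLM library than in every Con library, and 16.1% without BLM 3. Between KOBLM and BLM, 7 members had a higher and 7 a lower share in every KOBLM library. In BLM 3 the make-up was unlike that of the other libraries. The rank correlation of its shares with the median of the others was 0.80, against 0.89 to 0.98 for the other 11 libraries. Of 82 members with a mean of at least 20 CPM, 17 held in BLM 3 over 1.5 times and 19 under 1/1.5 of their median share in the other libraries. In the other 11 libraries 0 to 8 members were over and 0 to 20 under, with the 20 in KOBLM 2, which thus stood as far off in that direction, and 14 in KO 2. The share of Rps4l was 4.89 times and that of Rps15 0.19 times the median.

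**Figure D5:**
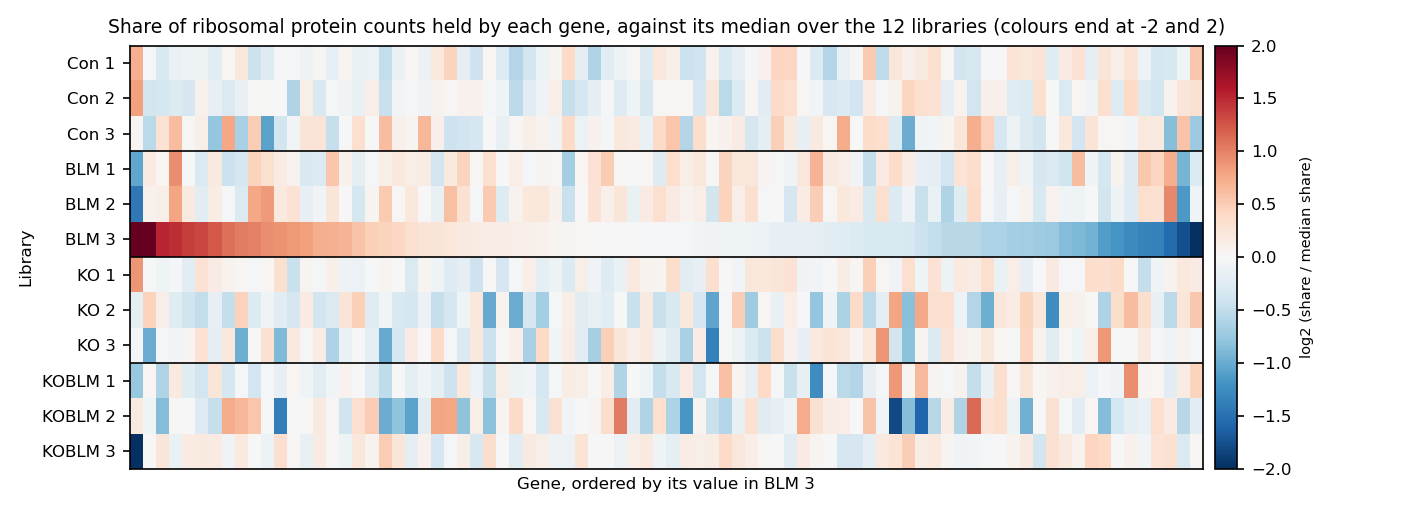
Share of the ribosomal protein counts held by each of 82 genes, as log2 of its ratio to the median share of that gene over 12 libraries, with libraries as rows. Red is above and blue below the median. BLM 3, by whose values the genes are ordered, runs from deep red (Rps4l and Rpl3, at the left end) to deep blue (Rps15, at the right end), and BLM 1 and BLM 2 lack most of that pattern.

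The paralogs and like-named genes were compared with their partners, since some replace a standard protein in particular tissues. Rpl3l, the form of heart and skeletal muscle, was at most 18.9 CPM, and Rpl39l and Rpl10l, known from testis, at most 7.70 and 0.111 CPM. Rpl22l1 averaged 127 CPM beside 1178 for Rpl22, and Rpl36al 318 beside 133 for Rpl36a. Rps27l, a target of p53, averaged 174 CPM beside 74.9 for Rps27. It was at 115, 88.1 and 175 CPM in Con and 246, 256 and 270.4 CPM in BLM. The groups were apart, and the log2 fold change of 1.06 ± 0.50 (SE, edgeR p = 0.050, exact permutation p = 0.1) missed the threshold, which it passed without BLM 3. Rpl7l1, which acts in the assembly of the large subunit, was at 82.5, 92.1 and 149 CPM in Con and 57.7, 52.0 and 51.3 CPM in BLM. All BLM libraries were lower than Con, with a log2 fold change of −0.98 ± 0.57 (SE, edgeR p = 0.11, exact permutation p = 0.1). Rps4l was at 75.3, 72.6 and 53.8 CPM in Con, 28.1 and 22.3 CPM in BLM 1 and BLM 2, and 431 CPM in BLM 3. None of the 7 tested genes of this kind was called in any comparison.

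The second comparison asks how bleomycin-treated mice with and without p300 in ATII cells differed. It shares the BLM mice with the first comparison, so the values of both are not independent. Between KOBLM and BLM, 10 of the 84 members were lower in KOBLM and none higher, against 1.78% and 1.39% of all tested genes. They included Rpl3, Rpl6, Rpl10a, Rpl13a, Rps3a1, Rps14, Rps23 and Rps27a. The median log2 fold change was −0.48 over the members and 0.10 over all tested genes, and 73 of the 84 lay below 0. Without BLM 3 the medians were −0.45 and −0.06. In CPM, 37 members (44.0%) were lower in every KOBLM library than in every BLM library, against 4.98% of all tested genes, and only Rpl7l1 was higher in every one (background 6.04%). Without BLM 3, 42 members (50%) were lower in every KOBLM library, against 15.4% of all tested genes, and 1 was higher, against 8.05%. The adjusted p of edgeR was 1.0 for each member.

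Rps27a was at 204, 257 and 211 CPM in KOBLM, below its lowest BLM library, with a log2 fold change of −1.56 ± 0.47 (SE, edgeR p = 0.0052, exact permutation p = 0.1). Rpl10a was at 82.7, 97.7 and 189.8 CPM in KOBLM, a log2 fold change of −1.54 ± 0.60 (SE, edgeR p = 0.022, exact permutation p = 0.1), and without BLM 3 it was −0.77 and not called. Rps3a1 was at 242, 359 and 325 CPM in KOBLM, with a log2 fold change of −0.97 ± 0.42 (SE, edgeR p = 0.037, exact permutation p = 0.1). Rpl13a, at 273, 454 and 459 CPM in KOBLM, had a log2 fold change of −1.15 ± 0.50 (SE, edgeR p = 0.038, exact permutation p = 0.1), which was −0.47 without BLM 3 and not called. Rps23 was the called member whose groups overlapped, with 171, 463 and 283 CPM in KOBLM and 461 CPM in BLM 1.

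Without BLM 3, 8 members were called lower in KOBLM and none higher (1.58% and 1.76% of all genes then tested). The 4 called with and without it, Rps14, Rps27a and Rps3a1 among them, made up 40% of the 10 and 50% of the 8. Without KOBLM 1, 1 member (1.19%) was called lower, against 1.12% of all genes then tested, so the members' share was near the background in that fit. Without KOBLM 2, 3 members (3.57%) were, against 0.834%. Rpl7l1 was at 81.2, 69.5 and 75.5 CPM in KOBLM, above BLM, with a log2 fold change of 0.58 (edgeR p = 0.32, exact permutation p = 0.1). Rplp1 was at 2821, 3864 and 2707 CPM in KOBLM, overlapping with BLM (log2 fold change −0.12, edgeR p = 0.74, exact permutation p = 0.3).

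A further pair of comparisons asked for an effect of the deletion in PBS-treated mice and of bleomycin in mice with the deletion. Between KO and Con, no member was called, against 1.44% of all tested genes. The median log2 fold change was 0.14 over the members and −0.09 over all genes. No member was at an unadjusted p under 0.05 by edgeR or called by DESeq2, and no member had all KO libraries above or below all Con libraries (2.18% and 7.56% of all tested genes). Between KOBLM and KO, no member was called either (1.69% of all tested genes), again with none at an unadjusted p under 0.05 and none called by DESeq2. The median log2 fold change was 0.00 over the members and 0.08 over all genes. Rpl7l1, Rpl39 and Rps15 were lower in every KOBLM library than in every KO library (3.57% of the members, background 2.87%), and no member was higher in every one (background 3.95%). Rps27a, as an example, was at 221, 160.0 and 274 CPM in KO and at 204, 257 and 211 CPM in KOBLM, with overlapping groups.

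The interaction tests whether bleomycin acted differently in mice with and without the deletion. At the same threshold, 2 of the 84 members (2.38%), Rpl12 and Rps27a, were called, both with a smaller effect of bleomycin under the deletion (background 1.31%, and 1.51% in the other direction, where no member was called). This share is near the background. Rpl12 was at 55.5, 43.1 and 84.3 CPM in KO and 42.8, 60.3 and 51.3 CPM in KOBLM, with an interaction of −1.93 ± 0.89 on the log2 scale (SE). That of Rps27a was −1.47 ± 0.66 (SE). Both passed the unadjusted threshold and had an edgeR adjusted p of 1.0. Over the members the median interaction was −0.68, over all tested genes 0.23, and 78 of the 84 lay below 0. Without BLM 3 the medians were −0.59 and 0.06, and 6 members were called lower (Rpl12, Rpl30, Rpl38, Rpl41, Rps14 and Rps27a, background 2.44%) and none higher (background 2.19%). For the other 82 members, a change in BLM against Con and none in KOBLM against KO is not shown to differ.

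Among the ribosomal protein genes under other names, Fau and Gnb2l1 had log2 fold changes of 0.06 and −0.06 in BLM against Con and were not called. Of 40 initiation factors, Eif2s2 and Eif2b2 were called higher in BLM and none lower (background 2.19% and 2.08%). Of the 40, 33 lay above 0, with a median log2 fold change of 0.36. Without BLM 3, 30 lay above 0 and the median was 0.22. Eif2s2, a subunit of the factor that brings the initiator tRNA, was at 221, 310.4 and 432 CPM in Con and 479.7, 441 and 3859.9 CPM in BLM, where BLM 3 carried most of the mean, and without it neither of these factors was called. Of 10 elongation factors, Eef1b2 was called higher in BLM, and without BLM 3 only Eef1d was called, lower. Eef1b2, which recharges the factor eEF1A with GTP, was at 165, 176 and 279 CPM in Con and 301, 309 and 1574 CPM in BLM, and its call was lost without BLM 3. Eef1a1 and Eef2 had log2 fold changes of 0.17 and 0.27 in BLM against Con, with overlapping groups. Of 19 other mRNAs with a TOP tract, 2 were called higher, Eef1b2 among them, and the median log2 fold change was 0.10. Without BLM 3, 1 was called higher and 1 lower, and the median was 0.17. Tpt1 (−0.17) and Pabpc1 (0.66) were not called.

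Of 22 tested regulators of TOP mRNAs and of ribosomal protein genes, Mycl was called higher in BLM than in Con (background 2.19%). It had 0 CPM in all Con libraries and 4.00, 5.41 and 33.4 CPM in BLM, and was also called without BLM 3. Mycl was called in the interaction as well, in the lower direction, and not without BLM 3. Larp1, which binds TOP mRNAs, was called lower in KOBLM than in BLM, at 170.5, 227 and 185 CPM against 236, 343 and 1135 CPM, and the call was lost without BLM 3. Mtor, Myc and Eif4ebp1 were not called in BLM against Con or KOBLM against BLM. Without BLM 3, Cnbp and Eif4ebp2 were called higher in BLM than in Con, and Eif4ebp2 lower in KOBLM than in BLM. Of the 77 genes of mitochondrial ribosomal proteins, 1 (Mrpl52) was called higher in BLM against Con (background 2.19%), with and without BLM 3. Mrps15 was called lower without BLM 3. The median log2 fold change was 0.36, and 0.20 without BLM 3.

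The members varied together across the libraries. Correlations were taken on log2(CPM + 1). Their median between pairs of the 84 members was 0.50 over 12 libraries and 0.44 over 11 without BLM 3. It was 0.00 for mitochondrial ribosomal protein genes. A shared library total and the group differences both enter such values, and low counts weaken them. Of the 84, 79 correlated positively with the sum of the other members, and Rpl3l, Rpl7l1, Rpl39l, Rplp2 and Rps15 did not. Outside the set, 8861 genes had a mean of at least 10 CPM. Those whose log2(CPM + 1) was most like the summed CPM of the members were Prmt1 (Pearson r 0.95, and 0.89 without BLM 3), Gm5148 (0.95 and 0.93) and Eef1b2 (0.94 and 0.86). Prmt1, an arginine methyltransferase, was at 31.7, 44.8 and 57.4 CPM in Con and 91.6, 128 and 577 CPM in BLM.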

How the data were processed

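RNA of sorted ATII cells was made, per the labels, into Quant-Seq libraries (a 3′ method), which were read single-end. The authors deposited raw read counts per gene symbol for each library, without normalization. Per the labels' processing notes, Bowtie2, edgeR and mm10 were used, in roles and versions not given in the sources used here. Groups were taken from the labels. Here, the counts of 35 symbols listed more than once were summed (no member was among them), low genes were left out by the filterByExpr rule (edgeR 4.0.16, at least 10 counts and 15 in total, applied by group), and the remaining 13054 genes were fitted with TMM scaling and the quasi-likelihood test in 1 model of 4 groups (8 residual degrees of freedom). Tests were two-sided and Benjamini-Hochberg adjusted over all genes. CPM were computed on the total count of a library, at which 3 counts, the detection floor, are 0.269 to 0.428 CPM. The biological coefficient of variation was 1.44 in common and had a median of 0.53 over the members, so only large differences of single members could pass. Each replicate is a separate mouse. The threshold of a call follows the fold and p that the study states, with p unadjusted here.

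Members and lists were chosen with earlier results of these data known. Named were the 10 most abundant members, per comparison up to 5 called members per direction with the smallest p, the paralogs and their partners, the stalk and 5S particle genes, the 3 most and 3 least variable tested members, the 3 genes most like the summed CPM, called genes of other translation lists and 10 fixed genes of them. The other called members, and those lower in every library of a group, were named after their values were seen. Some genes that these rules take in are not reported here. Start windows came from RefSeq on GRCm38.p6. Same-numbered libraries correlated from −0.117 to 0.096 in their deviations, so no pairing by number was seen. Libraries with different numbers were not set beside them, so a shared handling of same-numbered mice was not tested. Alternatives were other scalings, filters, models and thresholds, each library left out in turn, and DESeq2 1.42.0. The fit was tested on simulated data. Versions were R 4.3.3, Python 3.11.15, scipy 1.17.1 and pandas 2.3.3, with figures drawn in matplotlib 3.10.9.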

Additional observations from a re-analysis of the deposited data

Results flagged for a closer look

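The interaction term of edgeR was at an unadjusted p under 0.05 for 2 of the 84 members (2.38%), against 1.31% of all tested genes in the same direction, so the count is near the background. For Rpl12 it was −1.93 on the log2 scale, a smaller effect of bleomycin in mice with the deletion (edgeR adjusted p = 1.0), and the sign was the same in each of the 12 fits that left out a library, of which 1 made the call. For Rps27a it was −1.47 (edgeR adjusted p = 1.0), also with the same sign in each of the 12 fits, of which 4 made the call.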

How the results depend on the processing

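The count of called members depended on the threshold and the model, while the sign of the median did not in BLM against Con, KOBLM against BLM, KO against Con or the interaction under any alternative run. In KOBLM against KO, where it was 0.00, the median ran from −0.16 to 0.05. The 14 members called in BLM against Con became 9 with no filter on low counts, 9 in a fit of only the groups compared, 53 by fold change alone and 0 by adjusted p, with edgeR as with DESeq2 (the latter chosen after seeing the data). The 10 called in KOBLM against BLM became 6, 1, 33 and 0 in the same order. In KO against Con and in KOBLM against KO, 3 members each passed by fold change alone (52.5% and 55.2% of all tested genes). By fold change alone, 50 of the 53 were higher in BLM (30.5% of all tested genes) and 3 lower (34.4%), all 33 were lower in KOBLM (30.2%), and 48 of 49 interactions were below 0 (31.2%). In either direction, 64.9%, 64.1% and 71.9% of all tested genes passed by fold change alone, so 53 (63.1%), 33 (39.3%) and 49 (58.3%) of the members were no more than the background. The 1 member called in KOBLM against BLM in a fit of only those groups (1.20% of those tested) stood beside 0.767% of all genes. The 2 interactions became 6 with DESeq2 size factors, 4 with TMM on genes that are not members, 5 without Rn45s, 0 with no filter, 8 by DESeq2, 49 by fold change alone and 0 by adjusted p of either tool. With the replicate number as a block, a shared number only, 9, 5, 0, 0 and 2 members were called in the 5 comparisons. Leaving out each library in turn gave 5 to 18 members in BLM against Con, 1 to 12 in KOBLM against BLM and 0 to 6 in the interaction, where 0 were called without Con 1, Con 2, KO 1, KO 2, KOBLM 1 or KOBLM 2, 1 without KO 3, 4 without BLM 1 and 6 without BLM 3. The cause was not tested. No called member changed sign. Library size in place of TMM moved the median of all genes in KO against Con from −0.09 to −0.21. The interaction needs all 4 groups, so a fit of fewer groups was not run.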

Other observations

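Of the 9 pseudogene or retrotransposed entries, 1 was called. Rpl37rt was at 655, 726 and 1384 CPM in Con and 1845, 1916 and 2170.4 CPM in BLM, with every BLM library higher and a difference of 1.12 on the log2 scale (edgeR adjusted p = 0.99). Without BLM 3 it was 1.18 and still called. Rpl37 itself was at 268, 251 and 467 CPM in Con and 559.7, 558 and 859.5 CPM in BLM. Rplp2-ps1 differed by −0.01 on the log2 scale between BLM and Con. Of the 10 members called higher in BLM against Con only without BLM 3, BLM 3 was below both other BLM libraries for 4 and was the highest of the 12 libraries for 6. Among the 4, Rpl30, at 128, 150.2 and 101.5 CPM in Con, was at 333, 407 and 109 CPM in BLM, and Rpl38, at 202, 161 and 288 CPM in Con, was at 401, 356 and 170.1 CPM in BLM.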
